A study of Mus musculus with 8 samples.

Results

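The secretoglobin (Scgb), major urinary protein (Mup) and odorant-binding protein (Obp) genes were examined in medullary thymic epithelial cells (mTECs). A gene belonged to the set when its mouse symbol in the GENCODE annotation of the GRCm38 genome was Scgb, Mup or Obp followed directly by a digit, and pseudogenes were left out. Of 60 such genes (22 Mup, 4 Obp, 29 of the Scgb1b and Scgb2b cluster and 5 other Scgb), 28 were among the 25466 genes of the count table, in which each gene has a count above 0 in at least 2 of the 8 libraries. The 28 listed genes comprised 15 Mup, 4 Obp, 4 Scgb1b or Scgb2b and 5 other Scgb genes, and 10 of them passed the filter on low counts and were tested.

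RNA of mTECs sorted by FACS from wild-type BL6N6 mice at 4 to 6 weeks of age was sequenced, and the design compared mTECs by surface Tspan8, a tetraspanin, and by MHC class II. Cells were sorted as CD45neg Epcampos CDR1neg and split into 4 subsets, Tspan8negMHCIIlo, Tspan8negMHCIIhi, Tspan8posMHCIIhi and Tspan8posMHCIIlo (MHCIIlow and MHCIIhigh in the labels), with 2 libraries named as biological replicates in each. The number of animals behind a library is not given in the sources used here. All 4 subsets share genotype and age, and no treatment was given.

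Secretoglobins are small secreted proteins that form disulfide-linked dimers; Scgb1a1 is the main product of airway club cells, and the Scgb1b and Scgb2b genes encode the alpha and beta-gamma chains of the androgen-binding proteins of saliva and tears. Major urinary proteins are lipocalins made mainly in the liver and carry volatile pheromones into the urine, and odorant-binding proteins are lipocalins of nasal and glandular secretions. Medullary thymic epithelial cells transcribe many genes of other tissues, which exposes developing T cells to self antigens, and Aire, which is highest in MHCIIhi mTECs, is a regulator of this promiscuous expression.

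Library totals ranged from 1941518 to 7783841 counts, so the same expression gave up to 4.01 times as many counts in one library as in another. Levels are counts per 1000000 (CPM) on library sizes scaled by the trimmed mean of M-values (TMM). The depth floor, set at 3 counts, lay between 0.385 and 1.65 CPM depending on the library and covers counting error only. Tspan8 stood at 3.65 to 14.6 CPM in the 4 Tspan8neg libraries and at 347 to 404 CPM in the 4 Tspan8pos libraries. H2-Ab1 (MHC class II) and Aire were higher in MHCIIhi than in MHCIIlo libraries at both Tspan8 levels, with Aire at 2476 to 2658 CPM in Tspan8negMHCIIhi, 402 to 541 CPM in Tspan8posMHCIIhi, 205 to 212 CPM in Tspan8negMHCIIlo and 14.8 to 35.4 CPM in Tspan8posMHCIIlo. The 10 mTEC markers checked were above 0 in every library and summed to 6558 to 12297 CPM. Tspan8negMHCIIlo stood apart in markers of other cells: 6 thymocyte markers summed to 336 and 933 CPM there and to 62.8 to 196 CPM in the other 6 libraries, and 6 markers of cortical thymic epithelial cells to 1126 and 881 CPM against 263 to 486 CPM. Most of this cortical sum was Ctsl, at 953 and 605 CPM. The means of Psmb11, Prss16 and Cxcl12 were also highest there, while Ly75 and Enpep were lower there than in Tspan8negMHCIIhi. Endothelial markers (4) summed to 85.3 to 120 CPM in the MHCIIlo and 23.1 to 28.5 CPM in the MHCIIhi libraries, fibroblast markers (6) to 139 to 272 CPM in the Tspan8neg and 75 to 124 CPM in the Tspan8pos libraries, and B cell markers (4) to 19.3 to 51.2 CPM in all. The fibroblast sum in Tspan8negMHCIIhi was mostly Col1a1 and Pdgfrb, with means of 89.9 and 53.5 CPM. Col3a1, Col1a2 and Pdgfra had lower means there (16.5, 15.2 and 0.776 CPM) than in Tspan8posMHCIIlo (36.6, 17.7 and 3.43 CPM). No marker of these lists was at 0 in any library.

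Most Mup genes could not be told apart by reads of 54 bases, the length sequenced. All 22 Mup genes lie at chr4:59956804-62150863, and the coding sequences of the 15 listed ones were 82.1% to 99.8% identical in pairs, with a median of 90.8% and 45 of 105 pairs above 95%. The first 54 coding bases of 7 listed genes in the GENCODE transcripts are shown because they decide which gene a read from the start of the coding sequence can be given to. Capitals mark bases that differ from Mup7 or have no partner in it after alignment:
Mup7: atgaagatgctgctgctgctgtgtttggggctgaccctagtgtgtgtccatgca
Mup14: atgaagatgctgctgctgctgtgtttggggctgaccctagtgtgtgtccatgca
Mup1: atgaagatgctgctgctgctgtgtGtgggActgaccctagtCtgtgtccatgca
Mup13: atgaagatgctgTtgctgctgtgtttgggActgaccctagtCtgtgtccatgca
Mup20: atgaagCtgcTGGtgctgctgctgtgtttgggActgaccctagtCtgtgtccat
Mup6: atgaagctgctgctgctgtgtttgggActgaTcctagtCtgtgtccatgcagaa
Mup4: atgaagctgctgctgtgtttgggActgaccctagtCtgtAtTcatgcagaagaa
The stretch of Mup14 was the same as that of Mup7, while Mup1 and Mup13 had 3 unlike bases each and Mup20, which encodes the pheromone darcin, had 6. Mup6 and Mup4 had 3 and 4 unlike bases and lacked 3 and 6 bases of Mup7, respectively.

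To see how far this held along whole transcripts, every window of 54 bases in the transcripts of each member was looked up in the transcripts of all other genes. For the 15 listed Mup genes, 7.62% to 98.3% of the windows occurred in no other gene, 10 of them had under 50% such windows, and a gene shared windows with 6 to 23 others. Mup6 (98.3%) and Mup4 (90.9%) were nearly gene-specific, whereas Mup1 (39.5%), Mup7 (14.0%) and Mup13 (7.62%) were not. By contrast, Scgb1a1, Scgb3a1, Scgb3a2, Scgb2a2 and Scgb1b27 reached 100% and Scgb2b27 98.6%. Obp2a and Obp2b shared windows with each other alone (88.9% and 88.7% specific), whereas Obp1a (94.5%) shared windows with Gm5938 and Obp1b (27.7%) with Gm14743, protein-coding genes outside the set. Scgb1c1 was 91.8% specific and overlaps Gm45785 and C330022C24Rik, which lie on the opposite strand. Counts of the single Mup genes other than Mup6, Mup4, Mup5 and Mup3, and of Obp1b and Scgb1b11, therefore rest on how the quantification divided shared reads.

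**Figure D1:**
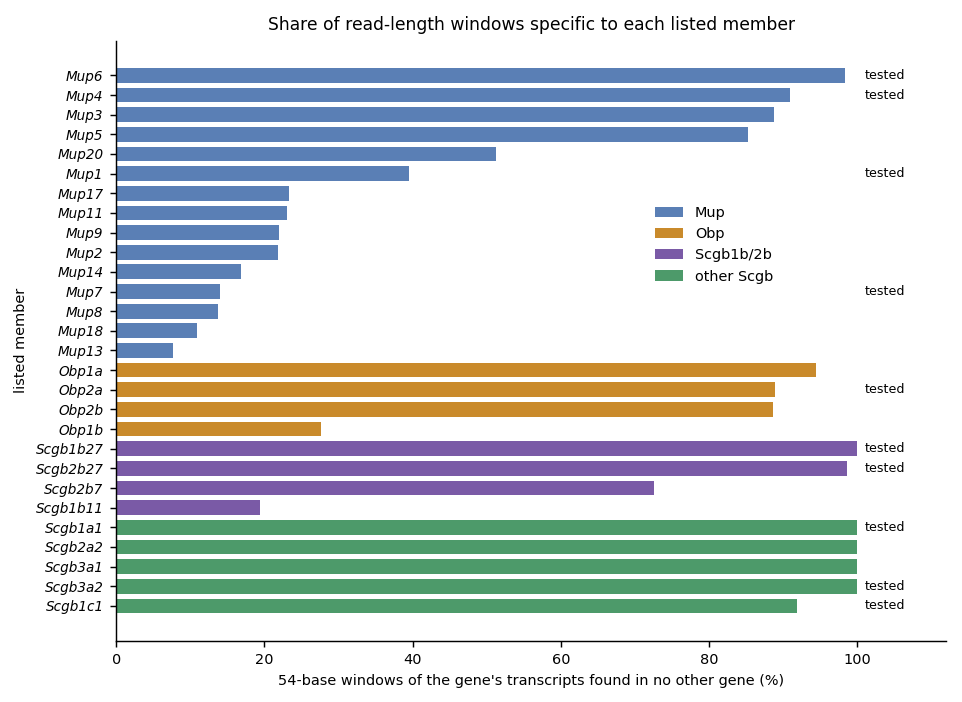
Horizontal bars give, for each of the 28 listed members, the share of 54-base transcript windows found in no other gene, in percent from 0 to 100, coloured by family, with the 10 tested members marked. The secretoglobins other than Scgb1b11 and Scgb2b7 lie above 90%, and 10 of the 15 Mup genes lie under 50%.

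Among the secretoglobins outside the androgen-binding protein cluster, 3 were tested, and Scgb1a1 was the most abundant member. Scgb1a1 (chr19:9083636-9087958) measured 1.97 and 4.01 CPM in Tspan8negMHCIIlo, 13.7 and 14.0 CPM in Tspan8negMHCIIhi, 221 and 195 CPM in Tspan8posMHCIIhi, and 88.5 and 102 CPM in Tspan8posMHCIIlo. No library of one subset reached into the range of another, and the order was Tspan8posMHCIIhi, Tspan8posMHCIIlo, Tspan8negMHCIIhi and Tspan8negMHCIIlo. Per kilobase of exon, the mean level in Tspan8posMHCIIhi was 437 CPM for Scgb1a1, 26.3 CPM for Scgb1c1 and 15.8 CPM for Scgb3a2.

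A gene was called when edgeR's quasi-likelihood test gave a Benjamini-Hochberg adjusted p under 0.01 over the 17006 genes tested and the log2 fold change was at least 1 in either direction. Scgb1a1 was higher in Tspan8pos than in Tspan8neg cells by a log2 fold change of 4.96 (SE 0.25, n = 2 per subset) in MHCIIlo, from means of 95.3 ± 9.62 and 2.99 ± 1.44 CPM (SD), and of 3.90 (SE 0.19) in MHCIIhi, from 208 ± 18.0 and 13.8 ± 0.174 CPM. The edgeR adjusted p was 1.86e-07 in MHCIIlo and 2.48e-07 in MHCIIhi. It was also higher in MHCIIhi than in MHCIIlo cells, by a log2 fold change of 2.17 (SE 0.28, adjusted p 1.31e-04) in Tspan8neg and of 1.11 (SE 0.16, adjusted p 9.55e-04) in Tspan8pos. All 4 differences were called in the fit of all libraries, but that between the Tspan8pos subsets was lost without Tspan8posMHCIIhi replicate 1, Tspan8posMHCIIlo replicate 1 or Tspan8posMHCIIlo replicate 2, with edgeR adjusted p of 0.0123, 0.0153 and 0.0146. In bulk samples, more cells transcribing a gene and more RNA per cell cannot be told apart. The p-values rest on 1 spread between replicate libraries per gene, estimated over all 4 subsets with 2 libraries each and drawn toward that of other genes.

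Scgb3a2, an airway secretoglobin, was called for Tspan8 at both MHCII levels and not for MHCII. Its level was 0.562 and 1.18 CPM in Tspan8negMHCIIlo (2 and 5 counts) and 0.416 and 0.769 CPM in Tspan8negMHCIIhi (2 and 6 counts). In Tspan8posMHCIIhi it was 12.5 and 15.2 CPM, and in Tspan8posMHCIIlo 11.5 and 12.0 CPM. Replicate 1 of both Tspan8neg subsets lay under the floor of 3 counts, so the size of the fold changes rests on few counts. The Tspan8pos libraries were all above the Tspan8neg ones, and the log2 fold change was 3.69 (SE 0.48, edgeR adjusted p 1.14e-04) in MHCIIlo and 4.42 (SE 0.45, adjusted p 2.30e-05) in MHCIIhi. Between MHCII levels the log2 fold change was -0.49 (SE 0.66) in Tspan8neg and 0.23 (SE 0.34) in Tspan8pos, with edgeR adjusted p of 0.615 and 0.709.

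Scgb1c1, a secretoglobin known from the olfactory mucosa, was low in Tspan8negMHCIIlo alone. It measured 0.843 and 0.236 CPM there (3 and 1 counts), 7.07 and 7.05 CPM in Tspan8negMHCIIhi, 10.4 and 13.6 CPM in Tspan8posMHCIIhi, and 6.05 and 3.82 CPM in Tspan8posMHCIIlo. The Tspan8negMHCIIlo libraries lay below all others. Pooled counts gave 8.32 times the level of Tspan8negMHCIIlo in Tspan8posMHCIIlo (exact 95% counting interval 3.0 to 32.0, edgeR adjusted p 0.00245) and 13.8 times in Tspan8negMHCIIhi (5.19 to 51.6, adjusted p 4.45e-04), and both differences were called. That between the MHCIIlo subsets was lost without Tspan8negMHCIIlo replicate 2 or Tspan8posMHCIIlo replicate 1, with edgeR adjusted p of 0.0174 and 0.0103, and also in libraries thinned to equal totals (0.0135) or a fit of the 4 MHCIIlo libraries alone (0.0158). Within MHCIIhi the Tspan8 difference was not called (log2 fold change 0.76, SE 0.37, adjusted p 0.128), nor was the MHCII difference within Tspan8pos (1.38, SE 0.41, adjusted p 0.0406). Whether reads of the genes on the opposite strand add to these values was not tested.

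The other 2 genes of this kind did not pass the filter. Scgb3a1, a secretoglobin of the airway, had 47 counts in all, from 1 to 12 in each library, and Scgb2a2, the mouse mammaglobin gene, had 6 counts, 2 and 4 in the Tspan8negMHCIIhi libraries.

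**Figure D2:**
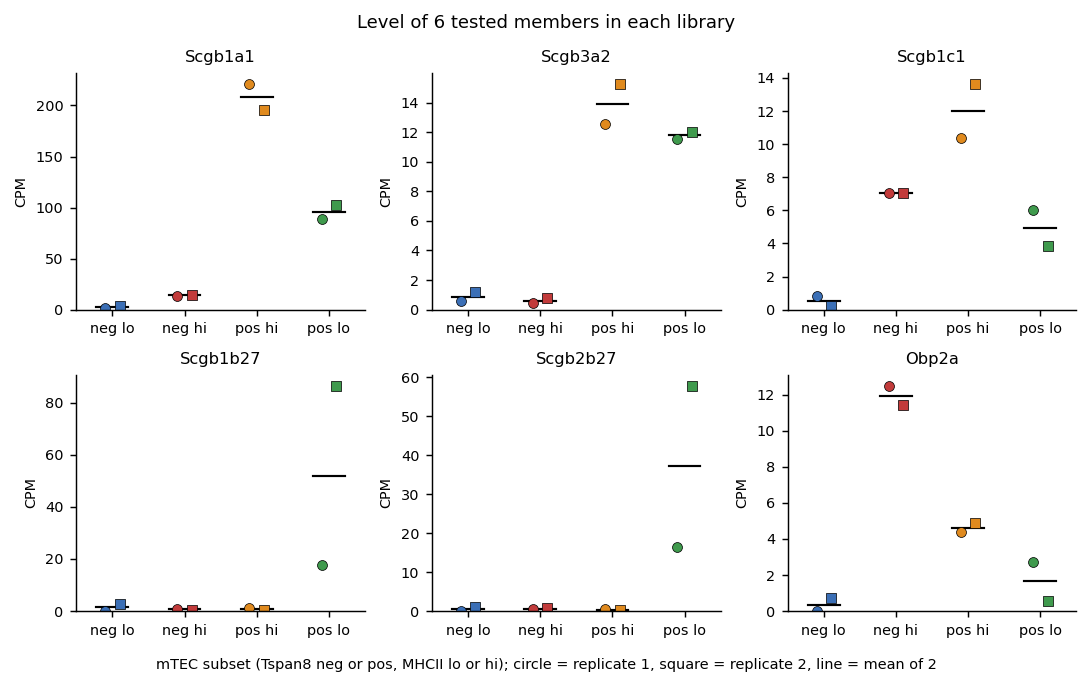
Points give the level of 6 tested members in CPM (linear axes from 0) in each of the 8 libraries, with circles for replicate 1, squares for replicate 2 and a line at the mean of the 2. Scgb1a1 and Scgb3a2 are high in both Tspan8pos subsets, Scgb1b27 and Scgb2b27 in Tspan8posMHCIIlo with a wide gap between its replicates, and Obp2a in Tspan8negMHCIIhi.

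The androgen-binding protein genes form a cluster at chr7:31290508-34100837. Of its 29 members 4 were listed, and counts fell almost entirely on the neighbouring and divergently transcribed pair Scgb1b27 (chr7:34021483-34022881, plus strand), which encodes the alpha chain, and Scgb2b27 (chr7:34011921-34013942, minus strand), which encodes a beta-gamma chain. The 250 bases before the RefSeq start of each (GRCm38.p6, written along the strand of transcription) are shown because the 2 genes differed between subsets together. Capitals mark AGGAAG or its reverse complement CTTCCT, the core bound by ETS factors such as Ehf and Elf3:
Scgb1b27, chr7:34021231-34021480, + strand: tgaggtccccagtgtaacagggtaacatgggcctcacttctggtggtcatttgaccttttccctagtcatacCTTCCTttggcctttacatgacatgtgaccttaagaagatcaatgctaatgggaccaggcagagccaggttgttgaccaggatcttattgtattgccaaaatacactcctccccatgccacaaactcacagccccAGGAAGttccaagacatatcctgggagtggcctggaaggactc
Scgb2b27, chr7:34013943-34014192, - strand: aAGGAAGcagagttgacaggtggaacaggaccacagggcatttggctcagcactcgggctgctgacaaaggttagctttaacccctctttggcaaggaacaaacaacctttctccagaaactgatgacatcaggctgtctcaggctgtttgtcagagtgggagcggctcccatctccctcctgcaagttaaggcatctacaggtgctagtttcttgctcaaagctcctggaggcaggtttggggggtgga
Scgb1b27 held the motif in these windows at 178 and 43 bases before the start, and Scgb2b27 at 249 bases; neither held TATAAA on either strand. The windows were 44.9% identical. AGGAAG stood in 29.5% of 32851 mouse promoter windows of the same length and in 5 of the 20 listed members that have one.

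Scgb1b27 measured 0 and 2.83 CPM in Tspan8negMHCIIlo, 0.832 and 0.513 CPM in Tspan8negMHCIIhi, 1.19 and 0.610 CPM in Tspan8posMHCIIhi, and 17.6 and 86.4 CPM in Tspan8posMHCIIlo (32 and 633 counts). Scgb2b27 measured 0 and 1.18 CPM, 0.416 and 0.897 CPM, 0.597 and 0.203 CPM, and 16.5 and 57.7 CPM (30 and 423 counts) in the same order. Both Tspan8posMHCIIlo libraries were above every other library for both genes, and the 2 genes were high in the same 2 libraries, at 1.07 counts of Scgb1b27 per count of Scgb2b27 in replicate 1 and 1.50 in replicate 2.

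Against Tspan8negMHCIIlo, the log2 fold change in Tspan8posMHCIIlo was 5.16 (SE 0.84, edgeR adjusted p 6.03e-04) for Scgb1b27 and 5.89 (SE 0.81, adjusted p 1.74e-04) for Scgb2b27. From Tspan8posMHCIIlo to Tspan8posMHCIIhi, Scgb1b27 fell by 5.89 (SE 0.88, adjusted p 0.00101) on the log2 scale, and Scgb2b27 was left with 4 counts against 453, a ratio of 0.00812 (exact 95% counting interval 0.00220 to 0.0209, adjusted p 3.48e-04). These 4 differences were called. Within MHCIIhi and within Tspan8neg no difference of either gene was called, with log2 fold changes between -1.22 and 0.49 and SEs of 1.25 to 1.46.

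The replicates of Tspan8posMHCIIlo differed more for this pair than for nearly all other genes. Replicate 2 was 4.91 times replicate 1 for Scgb1b27 and 3.50 times for Scgb2b27, and 0.0498% and 0.199% of the 14068 genes above the floor in both libraries had as high a ratio, with 95% of genes under 1.67. For Scgb1a1 and Scgb3a2 the ratio was 1.15 and 1.04. Without Tspan8posMHCIIlo replicate 2, none of the 4 calls held, with edgeR adjusted p of 0.0408 (Scgb1b27) and 0.0137 (Scgb2b27) against Tspan8negMHCIIlo and 0.0568 and 0.0260 against Tspan8posMHCIIhi, although the log2 fold changes kept their sign at 3.55, 4.66, -4.24 and -5.26. Scgb1b27 was also lost against Tspan8posMHCIIhi without either library of that subset, at adjusted p of 0.0171 and 0.0210. Replicate 2 had 7783841 counts and replicate 1 had 1941518. The thymocyte markers summed to 114 CPM in replicate 1 and 196 CPM in replicate 2, and their part in the difference was not tested.

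A list of genes of the salivary and lacrimal glands, from which the androgen-binding protein genes are known, contained 2 other genes that were highest in Tspan8posMHCIIlo. Prol1, a proline-rich protein of tears and saliva, stood at 0 to 0.707 CPM in the 6 other libraries and at 16.5 and 44.4 CPM in Tspan8posMHCIIlo, and was called against Tspan8negMHCIIlo (edgeR adjusted p 1.25e-04) and against Tspan8posMHCIIhi (adjusted p 2.87e-04). Car6, the secreted carbonic anhydrase of saliva, stood at 23.6 and 56.8 CPM there and at 1.97 to 18.5 CPM elsewhere, with adjusted p of 2.86e-05 and 0.00281. Their replicates also differed in the same direction, replicate 2 being 2.69 and 2.40 times replicate 1. The list was not uniform: of its 10 tested genes, 2 were higher and 0 lower in Tspan8pos than in Tspan8neg cells of MHCIIlo, while from MHCIIlo to MHCIIhi 6 rose in Tspan8neg, and 3 rose and 2 (Prol1 and Car6) fell in Tspan8pos. Over all tested genes, 12.1% were called higher and 9.34% lower for Tspan8 in MHCIIlo. For MHCII, 13.1% rose in Tspan8neg, and 4.59% rose and 2.62% fell in Tspan8pos. The largest MHCII difference in Tspan8neg was that of Dcpp1, a demilune cell secretory protein, which had 0 counts in Tspan8negMHCIIlo, 14.6 and 20.6 CPM in Tspan8negMHCIIhi, 6.77 and 3.66 CPM in Tspan8posMHCIIhi, and 0 and 0.683 CPM in Tspan8posMHCIIlo, at least 22.7-fold in Tspan8neg (edgeR adjusted p 6.68e-05). Dcpp3 and Dcpp2, close paralogs with which it may share reads, followed at least 8.5-fold and at least 5.86-fold higher.

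Scgb2b7 (4 counts) and Scgb1b11 (5 counts) were the only other listed genes of the cluster, with at most 3 counts in a library and none in the MHCIIlo libraries. Among the protein-coding genes beside the cluster, Gramd1a and Wtip were called lower in MHCIIhi than in MHCIIlo cells of Tspan8neg, and neither was called between the Tspan8pos subsets.

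The Mup genes were counted almost exclusively in MHCIIhi cells. The summed counts of the 15 listed genes were 2 and 5 in Tspan8negMHCIIlo, 87 and 236 in Tspan8negMHCIIhi, 83 and 52 in Tspan8posMHCIIhi, and 1 and 3 in Tspan8posMHCIIlo. In CPM the sums were 0.562 and 1.18, 18.1 and 30.2, 16.5 and 10.6, and 0.550 and 0.410, respectively. Each MHCIIhi library was above each MHCIIlo library, and the sum is not affected by how reads were divided among the listed genes. Reads that also match the 7 Mup genes and the pseudogenes outside the table may still be missing from it; 1 pseudogene of the family, Mup-ps16, was listed with 2 counts.

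**Figure D3:**
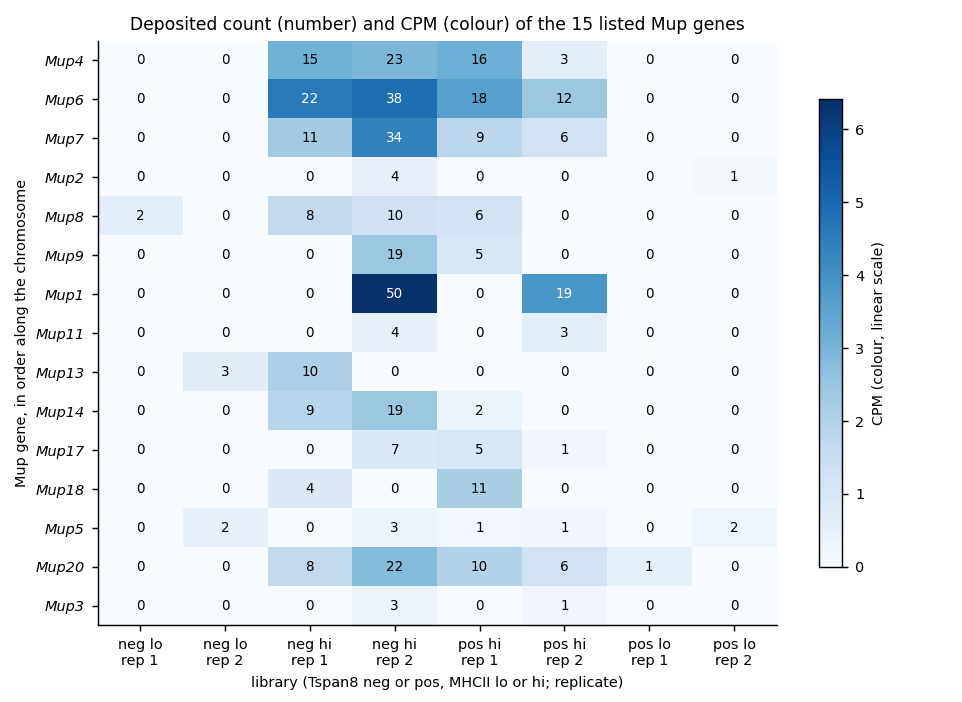
The grid shows the 15 listed Mup genes, in their order along chromosome 4, in each of the 8 libraries, with the deposited count as a number and CPM as colour on a linear scale from 0. The 4 MHCIIhi libraries in the middle hold 52 to 236 counts each and the 4 MHCIIlo libraries at the sides 1 to 5.

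Mup6, the most gene-specific of them, had 0 counts in all 4 MHCIIlo libraries, 4.58 and 4.87 CPM in Tspan8negMHCIIhi, and 3.58 and 2.44 CPM in Tspan8posMHCIIhi. It was at least 6.09-fold higher in MHCIIhi than in MHCIIlo within Tspan8neg (edgeR adjusted p 0.00124) and at least 2.93-fold higher within Tspan8pos (adjusted p 0.00700), both against a floor of 3 counts per library, and both were called. The call within Tspan8pos was lost without any single one of the 4 MHCIIhi or the 2 Tspan8posMHCIIlo libraries, with edgeR adjusted p from 0.0215 to 0.124, and that within Tspan8neg was lost without Tspan8negMHCIIhi replicate 2, at an adjusted p of 0.0135.

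Mup4 was at 0 in the same 4 libraries, at 3.12 and 2.95 CPM in Tspan8negMHCIIhi, and at 3.19 and 0.610 CPM in Tspan8posMHCIIhi. Its difference was at least 3.91-fold within Tspan8neg and at least 1.84-fold within Tspan8pos, but with edgeR adjusted p of 0.0107 and 0.0454 neither was called. The bound within Tspan8pos rested on replicate 1 of Tspan8posMHCIIhi, since replicate 2 had 3 counts, the floor itself. Mup7 had 2.29 and 4.36 CPM and 1.79 and 1.22 CPM in the MHCIIhi subsets and 0 elsewhere. It was called within Tspan8neg (at least 4.29-fold, adjusted p 0.00421) and not within Tspan8pos (at least 1.46-fold, adjusted p 0.0356). The call was lost without either library of Tspan8negMHCIIlo, Tspan8negMHCIIhi or Tspan8posMHCIIhi, with edgeR adjusted p from 0.0111 to 0.0580.

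Mup1, with 39.5% gene-specific windows, was the least even between replicates. It had 50 and 19 counts in replicate 2 of the MHCIIhi subsets, where it led the family, and 0 counts in replicate 1 of both, where Mup6 led with 22 and 18 counts. It was not called within Tspan8neg or Tspan8pos (edgeR adjusted p 0.100 and 0.255). Mup13 had 10 counts in Tspan8negMHCIIhi replicate 1 and 0 in replicate 2, and Mup18 had 11 in Tspan8posMHCIIhi replicate 1 and 0 in replicate 2.

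Within MHCIIhi, none of the 4 tested Mup genes was called between Tspan8pos and Tspan8neg (edgeR adjusted p 0.222 to 0.694), and the log2 fold changes lay between -1.15 and -0.65 with SEs of 0.56 to 1.43. The sign of the Mup4 value turned without Tspan8posMHCIIhi replicate 2. Among the untested genes, Mup20 had 47 counts, from 6 to 22 in each MHCIIhi library and 1 in the MHCIIlo libraries, and the totals of the others were 30 for Mup14, 26 for Mup8, 24 for Mup9, 15 for Mup18, 13 each for Mup13 and Mup17, 9 for Mup5, 7 for Mup11, 5 for Mup2 and 4 for Mup3.

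Windows of 250 bases before the RefSeq start are shown for Mup4 and Mup6, the tested Mup genes with mostly gene-specific windows, and for Obp2a, since these 3 were highest in MHCIIhi cells. Capitals mark TATAAA, the TATA box core:
Mup4, chr4:59960668-59960917, - strand: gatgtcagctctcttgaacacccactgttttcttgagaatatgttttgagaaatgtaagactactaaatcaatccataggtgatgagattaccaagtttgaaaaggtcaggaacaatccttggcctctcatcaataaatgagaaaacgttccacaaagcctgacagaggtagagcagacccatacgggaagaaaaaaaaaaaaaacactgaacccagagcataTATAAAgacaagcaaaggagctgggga
Mup6, chr4:60003231-60003480, + strand: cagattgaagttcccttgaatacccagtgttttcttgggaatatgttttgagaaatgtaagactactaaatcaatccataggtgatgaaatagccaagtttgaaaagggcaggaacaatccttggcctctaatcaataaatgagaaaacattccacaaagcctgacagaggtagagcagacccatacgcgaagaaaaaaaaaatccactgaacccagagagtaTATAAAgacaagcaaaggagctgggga
Obp2a, chr2:25699824-25700073, + strand: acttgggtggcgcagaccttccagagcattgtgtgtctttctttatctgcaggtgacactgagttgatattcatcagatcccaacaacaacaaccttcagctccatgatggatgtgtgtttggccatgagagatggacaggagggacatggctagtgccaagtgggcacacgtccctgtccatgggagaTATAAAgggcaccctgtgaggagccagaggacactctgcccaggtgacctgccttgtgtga
The windows of Mup4 and Mup6 were 90.9% identical, and TATAAA began 27 bases before the RefSeq start in both. In Obp2a it began 61 bases before the RefSeq start. For all 3 genes the RefSeq start differs from the GENCODE start. The Obp2a and Mup4 windows run past their GENCODE starts at 25700043 and 59960710, and the TATAAA of Mup4 lies inside its GENCODE gene. The whole Mup6 window lies inside its GENCODE gene, which starts at 59964294. Distances to the GENCODE starts would therefore differ. The window of Mup7, whose RefSeq start lies at another place in the gene, was 45.2% and 44.8% identical to those of Mup4 and Mup6. TATAAA was present on either strand in 12.4% of the 32851 promoter windows and in 7 of the 20 listed members with one, and CACCC, the core recognised by Krüppel-like factors, in 52.0% and in 9 of 20. Neither Mup4, Mup6 nor Obp2a held AGGAAG.

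Obp2a, a lipocalin of the nasal glands (chr2:25700043-25703326), was highest in Tspan8negMHCIIhi. It measured 0 and 0.707 CPM in Tspan8negMHCIIlo, 12.5 and 11.4 CPM in Tspan8negMHCIIhi, 4.38 and 4.88 CPM in Tspan8posMHCIIhi, and 2.75 and 0.546 CPM in Tspan8posMHCIIlo. The Tspan8negMHCIIhi libraries were above all others, followed by Tspan8posMHCIIhi, while the MHCIIlo subsets overlapped. Pooled counts of 149 against 3 gave 30.7 times the level of Tspan8negMHCIIlo in Tspan8negMHCIIhi (exact 95% counting interval 10.3 to 151, edgeR adjusted p 5.44e-04), which was called. Between MHCII levels in Tspan8pos the log2 fold change was 2.02 (SE 0.72, adjusted p 0.0828), and between Tspan8pos and Tspan8neg in MHCIIhi it was -1.36 (SE 0.53, adjusted p 0.0632); neither was called. A fit of the 4 MHCIIhi libraries alone called the latter, at -1.35 and an edgeR adjusted p of 0.00198.

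The other 3 Obp genes were not tested. Obp1b had 19 counts, all in MHCIIhi libraries, Obp2b had 10, also in MHCIIhi libraries, and Obp1a had 7, of which 2 were in Tspan8posMHCIIlo replicate 2. Genes beside Obp2a and Obp2b, most of them lipocalins, were also higher in MHCIIhi cells: of the 5 tested among the 3 nearest listed protein-coding genes on either side, Lcn10, Lcn3, Lcn11 and Gm13539 were called higher in MHCIIhi than in MHCIIlo cells of Tspan8neg, and Gm13539 also in Tspan8pos. Around the Mup cluster, Slc31a2 alone of 6 was called higher in MHCIIhi within Tspan8neg, Slc46a2 was called lower, and none was called within Tspan8pos.

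Counted over the 10 tested members, 5 were called higher and 0 lower in Tspan8pos than in Tspan8neg cells of MHCIIlo (Scgb1a1, Scgb3a2, Scgb1c1, Scgb1b27 and Scgb2b27), where 12.1% of all tested genes were called higher, 9.34% lower and 21.4% in either direction. Within MHCIIhi, 2 were called higher (Scgb1a1 and Scgb3a2) and 0 lower, against 11.0% of all genes higher, 7.45% lower and 18.5% either way. From MHCIIlo to MHCIIhi, 5 rose and 0 fell in Tspan8neg cells (Scgb1a1, Scgb1c1, Obp2a, Mup6 and Mup7), against 13.1% of all genes higher, 9.67% lower and 22.7% either way. In Tspan8pos cells 2 rose (Scgb1a1 and Mup6) and 2 fell (Scgb1b27 and Scgb2b27), against 4.59% and 2.62%, or 7.21% either way. A member could pass the filter through the subset where it was high, so these counts describe the 10 genes and not the 60. Of the 6 thymocyte markers, 4 were called lower in MHCIIhi than in MHCIIlo cells of Tspan8neg and 2 lower in Tspan8pos than in Tspan8neg cells of MHCIIlo, and of the 6 cortical markers 2 and 3 were called lower (1 higher in the first); their part in the differences from Tspan8negMHCIIlo was not tested.

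The median log2 fold change of the members with a fold was 4.33 for Tspan8 in MHCIIlo (6 genes, since the 4 Mup genes were at 0 in both subsets) and -0.65 in MHCIIhi (10 genes). For MHCII it was 4.29 in Tspan8neg and 1.70 in Tspan8pos, or 2.07 and 0.90 with the genes at 0 set to their lower bound. Over all tested genes the 4 medians were -0.03, -0.03, -0.04 and 0.01.

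**Figure D4:**
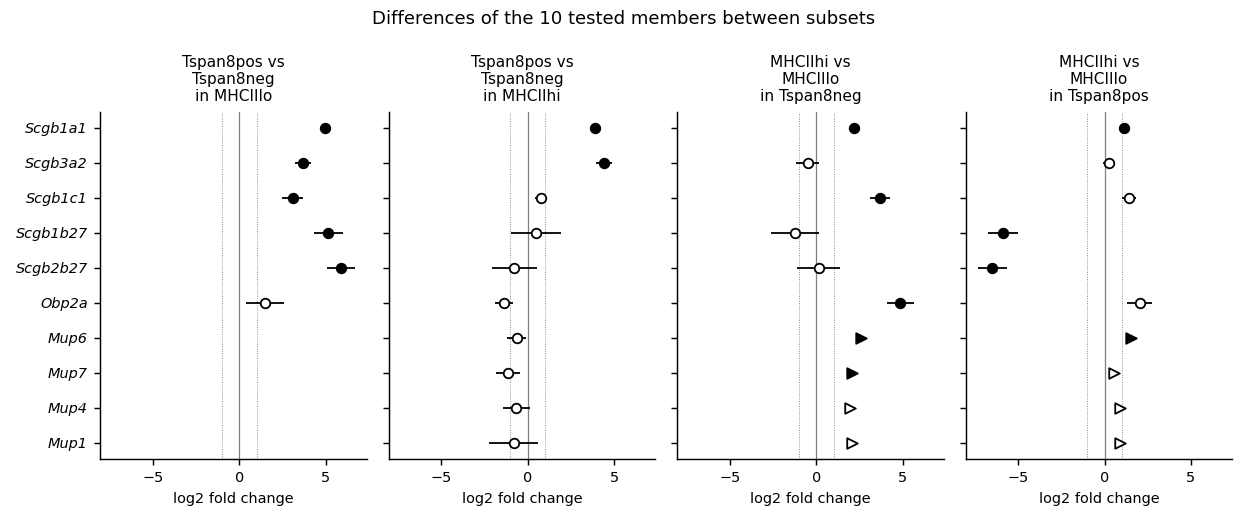
Each panel plots the log2 fold change of the 10 tested members in 1 comparison of subsets, with circles for fitted values and bars for their SE, and triangles for lower bounds where both libraries of the lower subset were at 0; filled symbols were called, dotted lines stand at a log2 fold change of 1 in either direction, and members at 0 in both subsets are left blank. In the 2 Tspan8 panels the filled symbols are all secretoglobins, and in the 2 MHCII panels the Mup genes are shown as bounds. Such a bound was drawn only where the mean lay above the floor, so each lies to the right of 0 by definition.

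Whether the Tspan8 difference itself changed with MHCII was tested as an interaction in the edgeR quasi-likelihood fit (difference in MHCIIlo minus difference in MHCIIhi). None of the 6 members with an interaction value was called. Over all tested genes, 2.36% were called with a positive interaction, 2.24% with a negative one and 4.60% in either direction. An unadjusted p under 0.05 in this test was reached by 5 members and by 4562 of all 17006 tested genes. The value closest to the threshold was 6.66 (SE 1.64, adjusted p 0.0232) for Scgb2b27, and DESeq2's Wald test called this gene alone, at 6.75 and an adjusted p of 9.74e-05. For Scgb1b27 the interaction was 4.68 (SE 1.91, adjusted p 0.143), for Scgb1c1 2.33 (SE 0.75, adjusted p 0.0680) and for Scgb1a1 1.06 (SE 0.34, adjusted p 0.0657). No interaction is given for the 4 tested Mup genes, which were at 0 in both MHCIIlo subsets.

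Genes with related functions, taken from lists chosen with earlier results of these data known, were examined beside the members. For each list, the shares over all tested genes serve as the reference. For Tspan8 these were 12.1% higher and 9.34% lower in MHCIIlo, and 11.0% and 7.45% in MHCIIhi. For MHCII they were 13.1% higher and 9.67% lower in Tspan8neg, and 4.59% and 2.62% in Tspan8pos. Of 15 tested genes of airway club cells and mucosa, 12 were called higher and 0 lower in Tspan8pos cells of MHCIIlo, and 13 and 0 in MHCIIhi, with medians of 3.81 and 3.01 on the log2 scale. Muc5b, a gel-forming mucin, showed the largest differences, at log2 fold changes of 6.69 (adjusted p 1.04e-07) and 5.38 (adjusted p 2.54e-07) in the edgeR test, and Gabrp, Lypd2, Upk3a, Cyp2f2 and Reg3g were among the next. Between MHCII levels, 6 of the 15 were called higher and 1 lower in each of Tspan8neg and Tspan8pos.

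Of 11 tested genes of the BPI fold family, secreted lipid-binding proteins of the airway and mouth, Bpifa1 and Bpifb1 alone were called for Tspan8, both higher, at both MHCII levels. From MHCIIlo to MHCIIhi, 9 of the 11 rose in Tspan8neg and 5 in Tspan8pos, and 0 fell, with median log2 fold changes of 4.85 and 3.35, or 3.54 and 2.03 at the bound. Against MHCIIlo libraries at 0, Bpifb9a was at least 11.6-fold, Bpifb6 at least 9.41-fold and Bpifb4 at least 7.0-fold higher in Tspan8neg, and Bpifb3 at least 4.10-fold and Bpifb6 at least 2.45-fold higher in Tspan8pos.

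Of 13 tested lipocalins outside the Mup and Obp genes, 3 were called higher in Tspan8pos cells of MHCIIlo, with Orm1 (acute-phase glycoprotein) at a log2 fold change of 3.67 and Lcn2 (siderophore-binding lipocalin) at 2.32, and 2 higher and 1 lower in MHCIIhi. For MHCII, 6 rose and 1 fell in Tspan8neg and 4 rose and 0 fell in Tspan8pos. Lcn3 and Lcn11 had no counts in the MHCIIlo libraries and were at least 5.93-fold and at least 5.41-fold higher in Tspan8negMHCIIhi. The median log2 fold change for MHCII was 3.40 in Tspan8neg and 2.52 in Tspan8pos, or 2.44 and 1.29 with genes at 0 set to their bound.

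Of 15 tested genes for secreted and other proteins of the liver, the main source of Mup protein, 12 rose and 0 fell from MHCIIlo to MHCIIhi in Tspan8neg, and 5 rose and 0 fell in Tspan8pos, with median log2 fold changes of 2.41 and 2.21, or 2.34 and 2.08 with genes at 0 set to their bound. Fga, a fibrinogen chain, was at 0 in the MHCIIlo libraries, as the tested Mup genes were, and at least 9.56-fold higher in Tspan8negMHCIIhi. Alb, serum albumin, stood at 0.281 and 0 CPM in Tspan8negMHCIIlo and at 8.11 and 19.4 CPM in Tspan8negMHCIIhi (edgeR adjusted p 6.06e-04), and Ttr, the thyroid hormone carrier transthyretin, rose within Tspan8pos by a log2 fold change of 4.28 (adjusted p 1.14e-05). For Tspan8, 1 was called higher and 1 lower in MHCIIlo and 2 higher and 2 lower in MHCIIhi. The 5 myeloid markers summed to 352 to 439 CPM in the MHCIIhi libraries and to 46.9 to 175 CPM in the MHCIIlo libraries, with Itgax and Adgre1 at 0 in Tspan8posMHCIIlo replicate 1. Lyz2 and Itgam made up most of these sums. Itgax alone went the other way in Tspan8neg, from a mean of 17.5 CPM in MHCIIlo to 5.16 CPM in MHCIIhi. The part of the myeloid markers in the MHCII differences was not tested.

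The 32 members outside the count table were Mup10, Mup12, Mup15, Mup16, Mup19, Mup21 and Mup22 and 25 genes of the Scgb1b and Scgb2b cluster, for which no level was analysed here.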

How the data were processed

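RNA of 8 libraries, 2 for each of 4 mTEC subsets, was measured by RNA-seq with single-end reads of 54 bases. The authors deposited estimated counts per gene from Salmon 1.8.0 on the Gencode vM10 transcriptome (mm10), as whole numbers that were not normalized. Library preparation is given as pre-amplified cDNA with tagmentation in the methods and as a stranded mRNA kit in the labels, so strand use is not settled, and amplified reads are not independent molecules. Gene names and coordinates came from GENCODE vM21 (GRCm38), and 130 of 25466 identifiers had no symbol. Libraries were grouped by title. All columns belong to a mapped library.

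Counts were tested with edgeR 4.0.16 in R 4.3.3 (quasi-likelihood test, TMM, filterByExpr, 1 fit of all 8 libraries, two-sided, Benjamini-Hochberg over 17006 genes), and calls needed both an adjusted p below 0.01 and a log2 difference of 1 or more. The common dispersion was 0.024. SEs were taken from the size of the log2 difference and the F statistic (size over root F). DESeq2 1.42.0 (1.30.0 was used by the authors) was an alternative. Library totals ranged from 1941518 to 7783841 counts, and CPM used them after TMM scaling. A bound is the mean CPM over the mean floor of 3 counts per library, and it leaves out the counting error of that mean. Counting intervals are exact (Clopper-Pearson) at 95% and cover counting error only.

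The members and lists were chosen with earlier results of these data known. All members that passed the filter are named with values and the other listed members with totals; of each list up to 4 called genes with the largest log2 fold change per comparison could be named, and the largest are given, and of each genomic cluster the nearest 3 listed protein-coding genes on each side were examined. 1 result is not reported here. The scripts were tested on simulated data. Other filters, normalizations, thresholds, thinning to the smallest library, a replicate block and leaving out each library were tried.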

Additional observations from a re-analysis of the deposited data

How the results depend on the processing

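The number of members called changed by over 1.5 times in these cases. With at least 10 counts in at least 4 libraries required, 3 were called for Tspan8 in MHCIIlo (5 as reported) and 2 for MHCII in Tspan8pos (4 as reported), since fewer members were tested. With only the 4 libraries of the comparison fitted, 4 were called for Tspan8 in MHCIIhi (2 as reported). With libraries thinned to the smallest total, 3 were called for MHCII in Tspan8neg (5 as reported). At an adjusted p under 0.05, 7 were called for MHCII in Tspan8pos. Scgb2b27 was the 1 member called for the interaction with DESeq2, without a filter, at an adjusted p under 0.05 and with a replicate block. Leaving out 1 library gave 3 to 5 calls for Tspan8 in MHCIIlo, 2 for Tspan8 in MHCIIhi in every case, 3 to 5 for MHCII in Tspan8neg, 0 to 4 for MHCII in Tspan8pos (0 without Tspan8posMHCIIlo replicate 2, 1 without Tspan8posMHCIIhi replicate 1) and 0 to 1 for the interaction. Calls over all genes moved as well. With the 10-count filter they went from 3640 to 3603 for Tspan8 in MHCIIlo and from 1226 to 1258 for MHCII in Tspan8pos. For Tspan8 in MHCIIhi they went from 3143 to 3963 with only 4 libraries. For MHCII in Tspan8neg they went from 3866 to 3206 in thinned libraries. At an adjusted p under 0.05, 1858 genes were called for MHCII in Tspan8pos. Leaving out either library named above lowered the all-gene calls for MHCII in Tspan8pos too. Except where a report value states it, the cause was not tested.

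Whether libraries that share a replicate number belong together was not settled. Correlations between their deviations were positive but weak, at 0.00402 to 0.0924. With 2 libraries per subset, such values cannot decide whether the libraries are paired. With the replicate block, 6 members were called for MHCII in Tspan8neg and 1 for the interaction, and the interaction calls over all genes went from 783 to 1236 (1267 without a filter, 189 to 1385 with 1 library left out). Mup4 was then called for MHCII in Tspan8neg (adjusted p 0.00781 in edgeR), as it was without a filter (0.00349) and with only the 4 libraries (0.00638).

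Signs turned only for log2 fold changes that were not called. In thinned libraries Scgb2b27 gave 2.39 and Mup1 0.026 for Tspan8 in MHCIIhi, and Scgb2b27 gave -4.00 for MHCII in Tspan8neg. Leaving out 1 library moved the Tspan8 difference in MHCIIhi from -2.24 to 0.083 for Mup4, from -0.044 to 0.89 for Scgb1b27 and from -7.06 to 6.15 for Mup1. It moved the MHCII difference in Tspan8neg from -0.97 to 0.15 for Scgb3a2, from -2.12 to 4.73 for Scgb1b27 and from -0.72 to 4.88 for Scgb2b27. Of the values of single genes and families under the alternatives that keep all libraries, 331 kept their sign and side of the threshold, 12 passed it newly, 2 no longer passed it, 3 turned sign and 4 without a test moved beyond the replicate spread. With 1 library left out, 303 kept both, 1 passed newly, 24 no longer passed and 8 turned sign. With windows of 31 bases in place of 54, Mup6 was 75.7% and Mup4 62.0% gene-specific.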
